A study of Mus musculus with 12 samples.

Results

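The genes described here are 10 genes of WNT and R-spondin signalling, the ligand genes Wnt2, Wnt9b, Wnt5a, Rspo1 and Rspo3, the receptor genes Lgr4 and Lgr5, the ubiquitin ligase genes Rnf43 and Znrf3, and the target gene Axin2. They were taken by symbol from a table of 54227 genes, and all 10 were found. Livers of C57Bl/6 mice that carried the transgene Sox9EGFP were dissociated, and cells were sorted by EGFP fluorescence, so that even the EGFP-negative cells came from transgenic animals. The 4 gates were GFPneg, GFPsublow, GFPlow and GFPhigh, called neg, sub, low and high below, with 3 libraries each. The mice had been fasted for 16 h, and each library was made from total RNA of 12000 sorted cells. The labels give neither age nor sex, and they do not say whether the 3 libraries of a gate came from separate mice. The p-values therefore measure the spread between these libraries, which may be technical. EGFP reports on the Sox9 transgene, so a gate is a range of reporter fluorescence and can hold several cell types.

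WNT proteins are secreted lipid-modified signals that bind frizzled receptors with the co-receptors encoded by Lrp5 and Lrp6, which stabilises beta-catenin and lets it act with TCF and LEF factors on target genes. The membrane ligases made from Rnf43 and Znrf3 remove frizzled receptors from the cell surface. R-spondins bind LGR receptors together with these ligases, take the ligases off the membrane and so raise the response to WNT. In the liver, endothelial cells of the central vein are a known source of Wnt2, Wnt9b and Rspo3, and hepatocytes next to that vein are known for WNT-dependent genes such as Glul. Epithelial cells of the bile duct are the cells best known for Sox9 in the adult liver.

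The sequence just upstream of the gene start is shown for the genes on which the results below turn and for which RefSeq gave a promoter window. They are Wnt2 and Wnt9b, which were above 0 in neg and listed at 0 in low and high, and Lgr4, which was higher in low and high than in neg. Bases are printed 5′ to 3′ on the strand of the gene, in genome build GRCm38.p6, up to the base before the earlier of the RefSeq and GENCODE starts. Capitals mark matches, on either strand, to a CCAAT box, to a TATA-type motif, searched as TATAAA or as TTTAAA, and to a GC box, whose letters were GGGCGG.
Wnt2, chr6:18030586-18030695, minus strand: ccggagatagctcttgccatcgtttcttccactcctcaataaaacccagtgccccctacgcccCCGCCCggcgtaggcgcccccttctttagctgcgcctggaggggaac
Wnt9b, chr11:103749822-103750071, minus strand: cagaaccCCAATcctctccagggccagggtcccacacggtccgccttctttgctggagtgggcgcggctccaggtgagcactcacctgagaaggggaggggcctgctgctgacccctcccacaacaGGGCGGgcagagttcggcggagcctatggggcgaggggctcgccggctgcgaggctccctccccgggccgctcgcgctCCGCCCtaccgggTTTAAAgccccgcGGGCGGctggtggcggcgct
Lgr4, chr2:109917397-109917646, plus strand: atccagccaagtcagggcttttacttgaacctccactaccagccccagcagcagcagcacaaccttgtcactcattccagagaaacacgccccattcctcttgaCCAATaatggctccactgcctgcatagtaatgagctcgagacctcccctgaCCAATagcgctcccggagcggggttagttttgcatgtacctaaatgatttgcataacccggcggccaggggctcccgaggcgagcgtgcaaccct

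RefSeq windows of 300 bases, 250 before the start and 50 after it, were at hand for 6 of the 10 genes: Wnt2, Wnt9b, Rspo1, Lgr4, Rnf43 (2 windows) and Axin2. The Wnt9b window held a TATA-type match 33 bases before the start, a CCAAT match 243 bases before it and 3 GC boxes. The Lgr4 window held 2 CCAAT matches, 146 and 95 bases before the start, and neither of the other marked motifs. The Wnt2 window held 2 GC boxes, of which the one printed lies 187 bases before the RefSeq start. Its other GC box and its 1 CCAAT match lie past the GENCODE start, outside the bases printed. Of all 32851 windows of this length, 37.4% held CCAAT, 24.1% a TATA-type match and 35.7% a GC box, so these matches are common. Other motifs had been searched first, on both strands: a TCF/LEF motif (CTTTGAT or CTTTGAA, in 8.65% of all windows), a SOX motif (ACAATGG, 3.66%) and an ETS motif (CGGAAGT, 6.42%). They had 0 matches in the 7 member windows, which says only that these letters were not in these bases. The CCAAT, TATA-type and GC box motifs were added after the windows had been read. No match in a member's window overlapped a match of another motif.

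The libraries held 8775387 to 15535588 reads in genes, recovered from the deposited values as described under processing, and 9039 to 12687 genes were above 0 in a library. Sox9 had at most 1 read in each neg library (normalised counts of 0.691, 0 and 0), between 3707 and 6653 in sub and between 8838 and 17140 in low and high, whose ranges overlapped. The summed level of 12 endothelial markers was 106537 to 152549 in neg and 33774 to 40101 in sub; in low it was 756 to 2241, and high had 555 to 905. That of 12 stellate and mesenchymal markers was 19603 to 37011 in neg, 26891 to 38690 in sub, 825 to 2846 in low and 531 to 1937 in high. The 10 biliary markers summed to 22.2 to 414 in neg, where 9 of them had at most 3 reads in every library, and to 76051 to 105036 in low and high. The 10 hepatocyte markers summed to 395 to 793 in neg, where 6 of them had at most 3 reads in every library, and to 4841 to 8109 in sub; low had 14730 to 22209 and high 18248 to 22570.0. They did not move together: Alb and Ahsg had the highest values in low and high, Cyp3a11 was at 0 in all 12 libraries, Serpina1a was at 0 in low and high, and Apoa1 was at 211 to 616 in neg and 0 to 247 in low and high. In bulk libraries such as these, fewer cells of a type and less RNA per cell cannot be told apart.

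Many genes were listed at 0 in single libraries. Of the 16128 genes tested, those whose normalised counts averaged 10 or more, 3200 (19.8%) were above 0 in every library. Of 15 housekeeping genes looked at, a list chosen after values had been seen, 5 were at 0 in at least 1 library, among them Pgk1 in 4 libraries and Hprt in 2. A 0 is therefore given as "listed at 0", and each library's value is printed in place of a mean and SD. Of the 10 WNT and R-spondin genes, 9 passed the filter; Lgr5 did not.

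Rspo3, an R-spondin gene (chr10:29452416-29535867, minus strand, GRCm38), had the highest level per kilobase of these genes in neg. Its normalised counts were 3063, 4053 and 7613 in neg, 0, 0 and 179.5 in sub, and it was listed at 0 in the 6 libraries of low and high. All 3 neg libraries lay above the other 9, and sub 3 was the one library outside neg with reads. The 3 values of neg stood for 4433, 3314 and 7882 reads, and the value of sub 3 for 180.

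Against neg, Rspo3 was lower in low, at a log2 fold change of -12.15 ± 2.50 (SE; limma adjusted p = 0.00667), and by the same amount in high (limma adjusted p = 0.00641). These fitted values depend on the added count of 1. From the mean of neg and the normalised count that 3 reads have in a single library, mean Rspo3 was at least 1926-fold lower in low and at least 1619-fold lower in high. Without neg 3 these bounds were 1396-fold and 1173-fold. The calls held in edgeR, in DESeq2 and without any 1 library, with the highest adjusted p at 0.0284 for low and 0.0309 for high. Sub against neg had no overlap between libraries either, but its limma log2 difference of -9.65 ± 2.50 missed the threshold (adjusted p = 0.0719). The zeros of sub weigh on that value: from gate means of 59.8 and 4909, edgeR gave a log2 difference of -6.32 and DESeq2 -6.36. The contrast passed in edgeR (adjusted p = 0.0393) and without sub 3 (limma adjusted p = 0.0147), and not in DESeq2 (adjusted p = 0.442). Low and high against sub were both at -2.50 ± 2.50 with limma (adjusted p = 0.764 and 0.746), while edgeR gave adjusted p-values of 0.0109 and 0.0106 and DESeq2 9.23e-07 and 1.12e-06. Those differences rest on sub 3 alone: without it the log2 difference was 0.

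Wnt9b, a WNT ligand gene (chr11:103727364-103749821, minus strand), was above 0 in all neg libraries, at 453, 1095 and 608. It was at 0, 242 and 0 in sub and listed at 0 in every low and high library. The groups neg and sub did not overlap, and sub 2 was the one library outside neg with reads. Against neg the log2 difference was -9.39 ± 2.46 for low and for high (limma adjusted p = 0.0324 in both). From the mean of neg and the 3-read floor, mean Wnt9b was at least 282.0-fold lower in low and at least 237.1-fold lower in high. Without neg 2 these bounds were 208-fold and 175-fold. The tools did not give the same call: DESeq2 put the adjusted p at 1.44e-13 and 1.51e-13, and edgeR at 0.172 and 0.178. The fitted log2 differences were -26.62 and -26.58 in DESeq2 and -12.59 in edgeR for both. Against gates listed at 0, neither size is a measured fold. Leaving out any of the neg libraries ended both calls, at limma adjusted p-values from 0.0531 to 0.0714. So did leaving out any library of the gate compared, at 0.0841 to 0.101, and the call for low was also lost without high 1 (0.0504). Both calls were lost as well with no filter on the mean count, as given under processing. For sub against neg the limma log2 difference was -6.75 ± 2.46 (adjusted p = 0.317), where edgeR gave -3.13 and DESeq2 -3.16, from gate means of 80.5 and 719. Low and high against sub differed by -2.64 ± 2.46 (limma adjusted p = 0.751 and 0.731), passed in DESeq2 only (adjusted p = 2.35e-10 and 2.29e-10) and rested on sub 2, without which the log2 difference was 0.

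Wnt2, a second WNT ligand gene (chr6:17988940-18030585, minus strand), was at 389.7, 404 and 39.6 in neg and listed at 0 in all 9 libraries of sub, low and high. The lowest neg library for Wnt2, neg 3, was the one with the highest Rspo3. Against neg, the log2 difference was -7.54 ± 1.92 in each of the 3 EGFP-positive gates. It passed for low (limma adjusted p = 0.0277) and high (limma adjusted p = 0.0274) and missed for sub (limma adjusted p = 0.0658), although sub held the same 3 zeros. The unadjusted p was the same in the 3 contrasts; the adjusted p depends on how many genes pass, 192 in sub and 757 in low and in high against neg. Sub against neg passed without neg 3 (limma adjusted p = 0.0274) and with no filter (0.0439). From the mean of neg and the 3-read floor, mean Wnt2 was at least 108.9-fold lower in low, at least 91.6-fold lower in high and at least 80.8-fold lower in sub. Without neg 2 these bounds were 84.2-fold, 70.8-fold and 62.5-fold. Neither count test called Wnt2: the adjusted p was 0.378, 0.385 and 0.450 in edgeR and 0.0506, 0.0573 and 0.0753 in DESeq2 for low, high and sub. Leaving out any 1 low library ended the call for low (limma adjusted p from 0.0741 to 0.0804), and leaving out any 1 high library that for high (0.0746 to 0.0914).

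**Figure D1:**
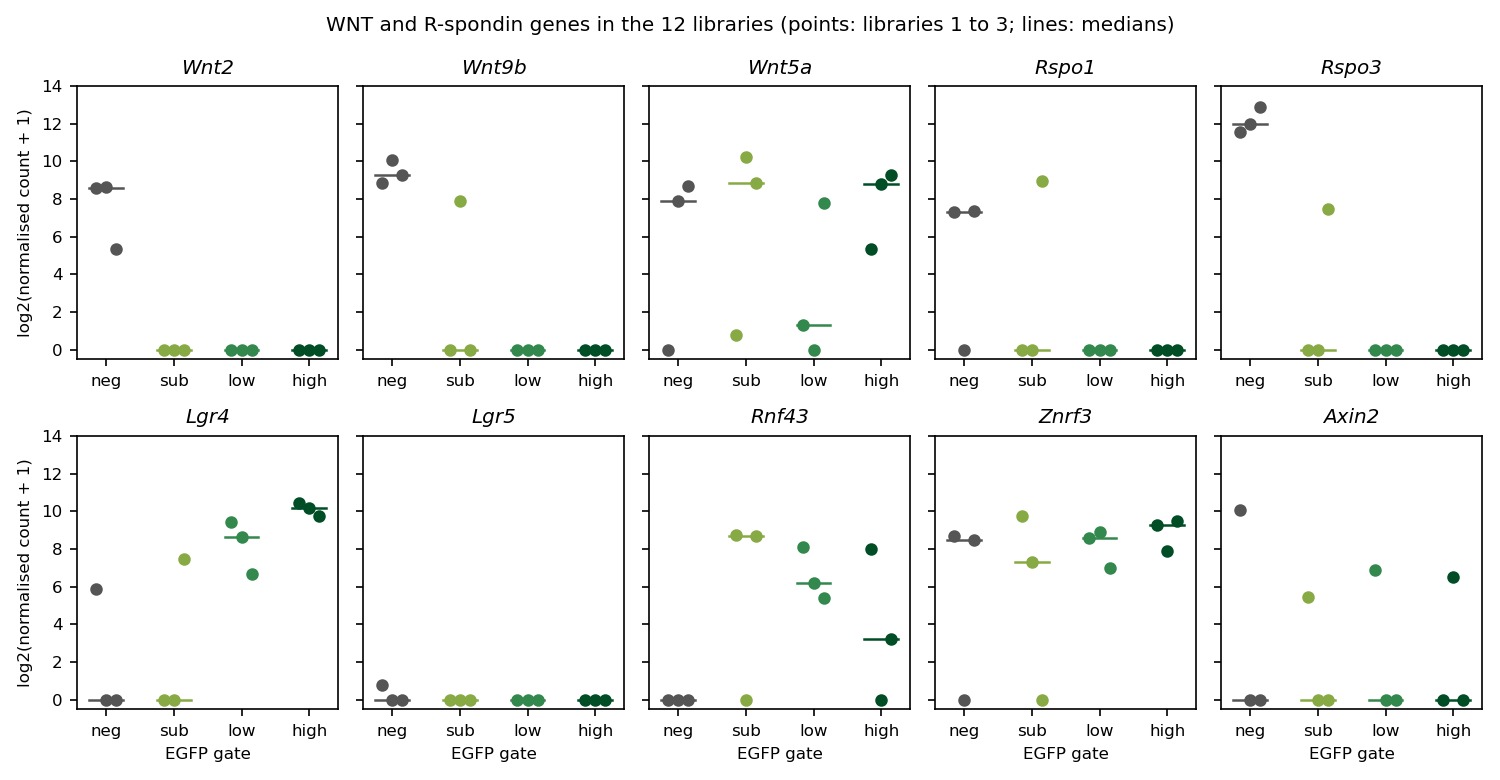
Each panel plots one gene's log2(normalised count + 1) in the 4 EGFP gates; points are the 3 libraries of a gate and lines their medians. Wnt2, Wnt9b and Rspo3 are above 0 in all 3 neg libraries and at 0 in all 6 libraries of low and high, while Lgr4 is highest in the 3 high libraries, at normalised counts from 863 to 1391.

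The 3 genes were the members called in low against neg, where limma called 4.69% of the genes tested in either direction and 2.15% lower in low. The same 3 were called in high against neg, where it called 4.69% in either direction and 2.25% lower in high. No member was called higher in either, against 2.55% and 2.44% of the genes tested. The comparisons share the neg libraries. In sub against neg (1.19% called), low against sub (0.744%), high against sub (0.986%) and high against low (0% called), limma called 0 members. At an unadjusted p under 0.05, limma had 684 genes in high against low and none of them was a member; edgeR called 34 genes there (0.211%) and DESeq2 697 (5.83%), and no member in either. The background of the other calls given for edgeR was 3.73% in low against neg, 3.84% in high against neg, 1.28% in sub against neg, 1.11% in low against sub and 1.41% in high against sub. For DESeq2 it was 19.7%, 18.9%, 14.3%, 13.7% and 12.9% in the same order. The 3 ligand genes also made up the members above 0 in all 3 neg libraries and at 0 in all 6 libraries of low and high, a pattern that 147 tested genes (0.911%) had. That pattern is the one these genes themselves show, so the share is a description and not a test. Wnt2 passed the filter on the mean count through neg alone. Without overlap and lower than neg were 3 members in sub (4.99% of genes tested), in low (8.52%) and in high (8.61%), again Wnt2, Wnt9b and Rspo3. In the moderated F test over the 4 gates, 4.23% of genes passed, among them Rspo3 (adjusted p = 0.0111) and Wnt2 (0.0390); Wnt9b missed (0.0650). With a pseudocount of 5 and with the replicate number as a block, Rspo3 passed and Wnt2 did not. With 1 library left out, Wnt2 passed without neg 3 and in no other case, and Rspo3 passed in every case but that one; Wnt9b also passed without sub 2, and Lgr4 without sub 3.

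Compared per kilobase of exon, the median normalised count in neg was 1312 for Rspo3, 173 for Wnt2, 135 for Wnt9b, 81.6 for Rspo1, 45.5 for Znrf3 and 30.3 for Wnt5a. Rspo3 thus stood above the other ligand genes in neg on this scale. The library-to-library spread within neg had no common order over the 3 genes: Wnt9b was highest in neg 2, Rspo3 in neg 3, and Wnt2 was close to equal in neg 1 and neg 2.

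The summed endothelial markers were, like these 3 genes, highest in neg and far lower in low and high. In sub they parted. The endothelial sum was 33774 to 40101 there, while Wnt2 was listed at 0 and Rspo3 and Wnt9b had reads in 1 library each. Of the 8 central vein endothelial markers listed, 3 are the genes themselves; the other 5 are Thbd, Vwf, Kit, Lhx6 and Cdh13. Their summed level was 15002 to 18780 in neg, 4862 to 14261 in sub, 64.1 to 309 in low and 25.1 to 267 in high. Thbd and Lhx6 had at most 3 reads in every library of low and high, and Lhx6 also in sub. Within neg, Lhx6 was at 1565, 1283 and 12.6 and Thbd at 2813, 746 and 114, so both had their lowest value in neg 3, as Wnt2 did; Cdh13 was lowest there too, at 1575. Vwf went the other way, at 5167, 7580 and 9451, and Kit was lowest in neg 1, at 3667. Within sub, the library with Wnt9b reads, sub 2, had the highest Vwf (10752), Thbd (1186) and Cdh13 (2323), but Kit was listed at 0 there and at 828 in sub 1. The stellate and mesenchymal sum had the same order as Rspo3 within neg, at 19603, 26453 and 37011, and was highest in sub 3 (38690) among the sub libraries. Its markers were mixed within neg. Pdgfrb, Pdgfra, Des, Dcn, Ngfr and Rgs5 had that order. Reln, Hgf and Lrat were highest in neg 2, Col1a1 and Col3a1 were lowest there, and Lhx2 had reads in neg 1 alone. The smooth muscle sum had the order of Rspo3 too, at 5294, 8643 and 13099 in neg. Its highest value of sub was in sub 3 (12456), and it was 1299 to 2102 in low and high. Most of it in neg was Myh11, at 2644, 6518 and 8981. Tagln had reads in neg 3 alone of the neg libraries. Acta2 (423, 742 and 376), Cnn1 and Mylk had other orders in neg, and Acta2 was highest in sub 2 (3104). The endothelial sum was lowest in neg 3 (106537), where Rspo3 was highest. In low and high, where Rspo3 was listed at 0, the stellate sum was at most 2846, but in sub 1 and sub 2, where Rspo3 was also listed at 0, it was 27742 and 26891, within the range of neg. The part of these marker lists in the results for Wnt2, Wnt9b and Rspo3 was not tested.

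**Figure D2:**
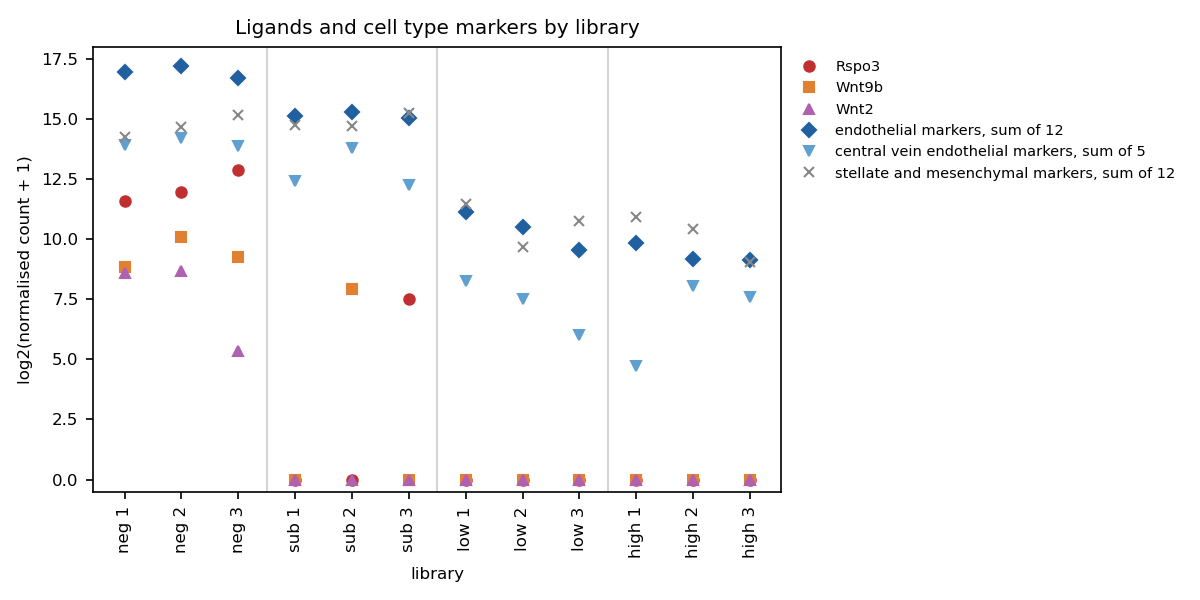
The plot gives log2(normalised count + 1) in each of the 12 libraries for Rspo3, Wnt9b and Wnt2 and for the summed normalised counts of 3 marker lists. The endothelial sum is 33774 or more in neg and sub and 2241 or less in low and high, and the 3 ligand genes have reads in all neg libraries, in sub 2 (Wnt9b) and in sub 3 (Rspo3).

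Rspo1, a second R-spondin gene (chr4:124986430-125009099, plus strand), was at 158, 0 and 163 in neg, at 0, 0 and 496 in sub, and listed at 0 in low and high. Its highest value was in sub and not in neg, and neg overlapped every other gate. No contrast passed in limma or edgeR; the lowest limma adjusted p was 0.369, for high against neg, and DESeq2 gave no adjusted p for this gene. The 4 mesothelial markers listed (Upk3b, Msln, Wt1 and Krt19, which is also on the biliary list) did not share one order. Their sum was 3894, 709.8 and 1595 in sub, so it was higher in sub 1, where Rspo1 was listed at 0, than in sub 3; in low it was 4936 to 7039, nearly all of it Krt19. Upk3b was at 688 in sub 3 and at most 16.4 elsewhere. Msln was above 0 in the same neg and sub libraries as Rspo1, and also in low 1, at 408, and in high 1, at 0.865. Wt1 was above 0 in sub 1 alone, at 66.3. The part of mesothelial markers in the Rspo1 values was not tested.

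Wnt5a, the gene of a ligand best known for signalling without beta-catenin (chr14:28504750-28527448, plus strand), was spread over the gates. Its normalised counts were 0, 237 and 409 in neg, 0.737, 1180.4 and 459.8 in sub, 1.48, 0 and 217 in low, and 39.8, 439.6 and 629 in high. It had no more than 39.8 in the number 1 library of each gate. All gates overlapped, and no contrast passed in any of the 3 tools (F test adjusted p = 0.735). The median was lowest in low, at 1.48, and the medians of neg, sub and high did not differ beyond the spread of their libraries.

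Lgr4, the receptor gene through which R-spondins act in many epithelia (chr2:109917647-110014257, plus strand), was higher in low and high than in neg. Rspo3 was lower in low and high than in neg, and in sub both genes had reads in sub 3 alone. The normalised counts of Lgr4 were 58.0, 0 and 0 in neg, 0, 0 and 178 in sub, 695, 402 and 101 in low, and 1391, 1140.0 and 863 in high. The 3 high libraries lay above the other 9, and low lay above neg but overlapped sub. In order of medians, neg and sub were both listed at 0 and did not differ beyond their spread, low stood at 402 and high at 1140.0.

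None of these Lgr4 differences passed in the fit over all genes. High exceeded neg by 8.16 ± 2.53 on the log2 scale (limma adjusted p = 0.0753), low exceeded neg by 6.30 ± 2.53 (limma adjusted p = 0.204) and high exceeded sub by 7.62 ± 2.53 (limma adjusted p = 0.210). The count tests gave smaller log2 differences: 5.92 in edgeR and 5.87 in DESeq2 for high against neg, 4.43 and 4.36 for low against neg, and 4.34 and 4.26 for high against sub. High against low was at 1.86 ± 2.53 (limma adjusted p = 1), with no overlap between the 3 and 3 libraries. The high against neg difference passed with a pseudocount of 5 (adjusted p = 0.0432), without neg 1 (0.0435) and without sub 3 (0.0477), in each case with limma. Its adjusted p was 0.336 in edgeR, the highest of its alternatives. Genes without overlap and higher were 8.38% of those tested in low against neg, where Lgr4 and Rnf43 were among them. They were 10.2% in high against neg, 7.2% in high against sub and 4.06% in high against low, and Lgr4 was the one member among them in each. The summed biliary markers were at most 414 in neg, 23404 to 43915 in sub, 83460 to 105036 in low and 76051 to 79221 in high. Sub did not overlap neg in these sums, while Lgr4 had a median of 0 in both gates; in high the sums lay below those of low without overlap, and Lgr4 lay above. The hepatocyte sums, 395 to 793 in neg, were 14730 to 22570.0 in low and high, mostly Alb and Ahsg, while Cyp3a11 and Serpina1a were at 0. The part of either list in the Lgr4 values was not tested.

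Lgr5, the receptor gene known as a WNT target and stem cell marker (chr10:115450311-115587780, minus strand), had 1 read in neg 1, a normalised count of 0.691, and was listed at 0 in the other 11 libraries. It was not tested. Lgr6, another receptor gene of this family, was above 0 in 7 libraries and had its highest value, 369, in sub 3.

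Rnf43, one of the ligase genes (chr11:87662722-87735539, plus strand), was listed at 0 in all 3 neg libraries. It was at 420.1, 0 and 412 in sub, at 273, 73.1 and 41.1 in low, and at 257.0, 0 and 8.17 in high. Low was the one gate that did not overlap neg, since sub and high each held a library at 0. The log2 difference from neg was 6.57 ± 2.83 in low (limma adjusted p = 0.249), 5.80 ± 2.83 in sub (0.534) and 3.74 ± 2.83 in high (0.556). DESeq2 called all 3, at adjusted p-values of 0.00807, 0.00293 and 0.0144, and edgeR none, at 0.355, 0.450 and 0.369. In these comparisons DESeq2 called 19.7%, 14.3% and 18.9% of the genes that had an adjusted p. From the gate means and the 3-read floor of neg, mean Rnf43 was at least 35.2-fold higher in low, at least 75.6-fold in sub and at least 24.1-fold in high. These bounds hold for the means of these libraries only. Without low 1 the bound for low was 15.6-fold, and without sub 1 that for sub was 56.1-fold. Without high 1 that for high was 1.11-fold, so that the high value rests on that library. A short intronic transcript on the same strand, 1110028F11Rik, was above 0 in 1 library, at 98.0. Whether reads were divided between it and Rnf43 was not tested.

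Znrf3, the other ligase gene (chr11:5276324-5444847, minus strand), was present in every gate. It was at 409.7, 0 and 359 in neg, 856, 159 and 0 in sub, 380.0, 482 and 127 in low, and 610.1, 234 and 716 in high. No library of low or high was at 0, and all gates overlapped. No contrast passed in any of the 3 tools, and the adjusted p of the F test was 0.735.

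Axin2, a feedback inhibitor and the usual readout of WNT and beta-catenin activity (chr11:108920349-108950783, plus strand), was above 0 in 1 library of each gate. The values were 1089 in neg 1, 116 in low 1, 89.9 in high 2 and 42.7 in sub 1, and the other 8 libraries were listed at 0. No contrast passed in limma or edgeR, the adjusted p of the F test was 0.981, and DESeq2 gave no adjusted p for this gene.

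**Figure D3:**
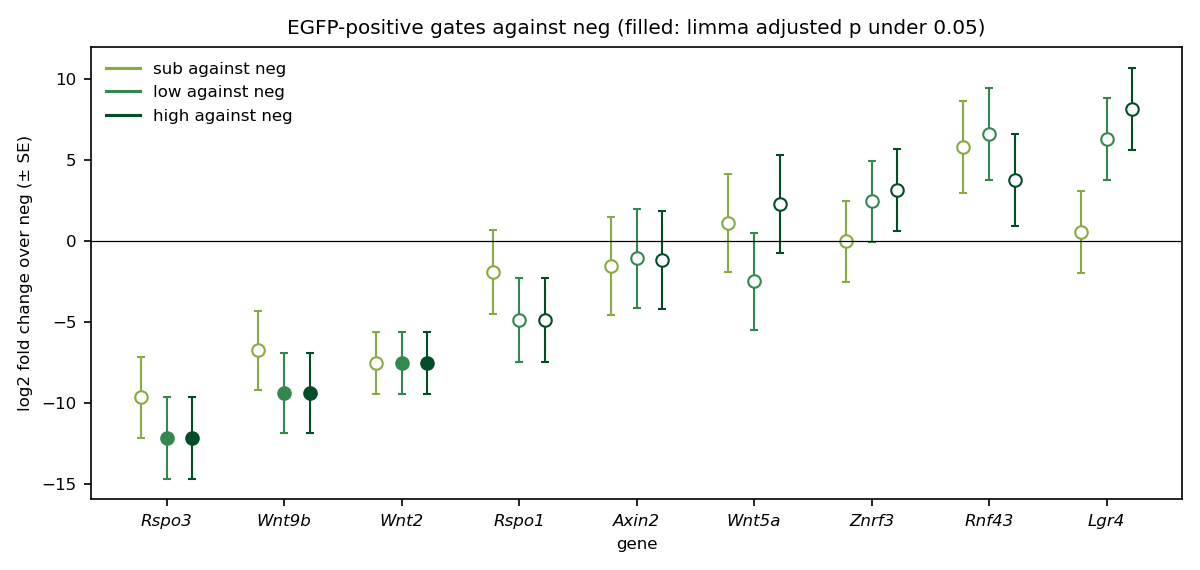
Points are log2 fold changes of sub, low and high over neg from limma on log2(normalised count + 1), with bars for the SE; filled points have an adjusted p under 0.05. The filled points are Rspo3 (-12.15), Wnt9b (-9.39) and Wnt2 (-7.54) in low and high, and Lgr4 in high (8.16) is an unfilled point.

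The rest of the pathway was read from 10 lists of 104 genes in all, of which 75 were tested and 22 were at 0 in every library. With limma, no listed gene was called higher in any of the 6 contrasts. In low against neg 5 were called lower (Rspo3, Wnt2, Wnt9b, Lrp5 and Nkd1), in high against neg 5 as well (Rspo3, Wnt2, Wnt9b, Adgra2 and Sfrp1), and in the other 4 contrasts 0. The 5 were 6.67% of the 75 in each, beside 4.69% over all genes tested. In each, 2 of the 5 were not among the 10 genes above, so the share rests largely on Rspo3, Wnt2 and Wnt9b. The count tests called other sets. In low against neg edgeR called 1 listed gene higher and 3 lower (5.33%, beside 3.73% over all genes) and DESeq2 5 and 9, which was 21.2% of the 66 listed genes with an adjusted p beside 19.7%. In high against neg edgeR called 1 higher and 2 lower (4.0% beside 3.84%) and DESeq2 7 and 5 (18.2% beside 18.9%). The DESeq2 shares were thus near those over all genes. In sub against neg DESeq2 called 5 higher and 0 lower (7.58% beside 14.3%). It called 0 higher and 7 lower in low against sub (10.6% beside 13.7%), 0 and 4 in high against sub (6.06% beside 12.9%) and 3 and 1 in high against low (6.06% beside 5.83%). The 4 of high against low were Dkk3, Nkd1 and Tcf7l1, higher in high, and Sfrp1, lower. In these 4 contrasts edgeR called Rspo3 lower in sub against neg and in low and high against sub (1.33% each, beside 1.28%, 1.11% and 1.41%), and no listed gene in high against low. The counts per list below are limma's.

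Of 19 WNT ligand genes, 9 were above 0 in some library, 8 were tested and 2 were called in low and high against neg, both lower. The median log2 difference of the 8 was -2.47 in low against neg and -1.23 in high against neg, beside 0 and 0.13 over all genes tested. Both medians rest in part on Wnt11, which had reads in neg 1 alone (162). The ligand gene with the highest mean was Wnt4, known from kidney and gonad development. It was at 1437, 2047 and 1731 in neg, 3268, 3066 and 2425 in sub, 2385, 2997 and 4409 in low, and 3461, 3446 and 5247 in high. All 9 EGFP-positive libraries lay above the 3 of neg, as they did for 2.06% of the genes tested, and the F test gave an adjusted p of 0.386; DESeq2 called it in high against neg (adjusted p = 0.0349). Of 4 R-spondin genes, Rspo2 and Rspo4 were listed at 0 throughout. Of the 2 genes for WNT release, Wls, which carries WNT proteins to the cell surface, was tested; it was called in no contrast, with a median of 46.9 in sub, 371 in low and 164 in high beside 667 in neg.

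The 5 genes of the R-spondin receptors and ligases had 4 tested and 0 called by limma; DESeq2 called Rnf43, as given above. The median log2 difference of the 4 was 4.37 in low against neg and 3.44 in high against neg, beside 0 and 0.13 over all genes tested. Znrf3 enters both medians, and its limma differences of 2.44 and 3.15 depend on the 0 in neg 2: edgeR gave 0.43 and 1.09.

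Among 18 frizzled and co-receptor genes, 16 were tested and 1 was called in each of low and high against neg. DESeq2 called Fzd3 and Fzd8, both frizzled genes, higher than neg in each EGFP-positive gate, and Lrp5 and Adgra2 lower in low and high. Fzd3 was above 0 in 4 libraries and Fzd8 in 6, none of them in neg, and neither passed in limma or edgeR. Lrp5, a co-receptor gene, was at 6845, 7393 and 3952 in neg, 2283, 2681 and 3975 in sub, 1485, 1175 and 1009 in low, and 2299, 1647 and 2919 in high. It was above 0 in all 12 libraries, and low lay below every other gate. It fell by 2.27 ± 0.46 on the log2 scale in low against neg (limma adjusted p = 0.0064, edgeR 0.0191, DESeq2 1.88e-05). The endothelial marker sums were also highest in neg (106537 to 152549), lower in sub (33774 to 40101) and lower again in low (756 to 2241). In high they were 555 to 905, while Lrp5 lay above low there. The part of these markers in the Lrp5 values was not tested. Adgra2, the gene of a co-receptor for WNT7 ligands in endothelium, was at 491, 86.8 and 671 in neg and 242, 567 and 503 in sub. It had 4.45, 0 and 0 in low and was listed at 0 in high. The log2 difference for high against neg was -8.26 ± 2.30 (limma adjusted p = 0.0441), and the call was lost in edgeR (adjusted p = 0.131) and kept in DESeq2 (adjusted p = 6.69e-07). It was also lost without neg 1, without neg 3 and without any 1 high library, at limma adjusted p-values from 0.0956 to 0.111.

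Of 16 inhibitor genes, 9 were tested and 1 was called by limma. In low against neg DESeq2 called Sfrp5 higher and Dkk3 lower. It also called Sfrp5 higher in sub and in high against neg. Sfrp5 was listed at 0 in neg and was above 0 in 1 library of sub (143 in sub 1) and 1 of high (25.3 in high 2). Sfrp1, a secreted inhibitor gene, was at 798, 544 and 1277 in neg and 243, 258 and 1268 in sub. It was at 0, 477 and 0 in low, and at 0, 0 and 0.817 in high. Its log2 difference for high against neg was -9.40 ± 2.53 (limma adjusted p = 0.0377; edgeR 0.0438; DESeq2 1.89e-05), and leaving out any 1 neg or high library ended the call, at 0.0821 to 0.109. All low and high libraries lay below neg, and low 2 lay within the range of sub.

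Of the 15 genes of the cytoplasmic relay and the 10 nuclear partners, all were tested and limma called none; DESeq2 called Btrc and Tcf7l1 lower in low against neg and Pygo1 higher in high against neg, among others. The gene with the highest mean was Usp34 in the relay list, with values from 3001 to 11448, and Tle3, a co-repressor gene, among the nuclear partners, from 839 to 6564. Of 13 general WNT target genes, 11 were tested and limma called 1. Tnfrsf19, a receptor gene, was listed at 0 in neg and was at 0, 0 and 494 in sub, 425, 393 and 774 in low, and 1385, 473 and 178 in high. It was higher than neg without overlap in low and high (8.38% and 10.2% of genes tested) and passed there in edgeR (adjusted p = 0.0423 and 0.0359) and DESeq2 (8.99e-22 and 2.07e-22), and not in limma (0.0507 and 0.0525). Nkd1, an inhibitor that WNT signalling itself induces, was at 719, 845 and 384 in neg and 455, 477 and 1105 in sub. It was listed at 0 in the 3 low libraries and was at 93.5, 8.09 and 0 in high. In low against neg its log2 difference was -9.27 ± 2.28 (limma adjusted p = 0.0224; edgeR 0.0306; DESeq2 5.83e-08); leaving out neg 1, neg 2 or low 3 ended the call, at 0.0506 to 0.0654. The general targets had medians of 0 in low against neg and 2.21 in high against neg, beside 0 and 0.13 over all genes. Both are the values of Notum, which was at 98.0 in high 2 and listed at 0 in the other low, high and neg libraries, so the 2.21 rests on that library. Adgra2, Sfrp1 and Nkd1 had their high values in neg and sub, as the stellate and mesenchymal sums did (19603 to 38690 there and at most 2846 in low and high), and the endothelial sums were also higher there. The part of either list in these 3 calls was not tested.

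Of 10 pericentral hepatocyte targets of WNT, 6 were tested and limma called 0, while 4 were listed at 0 in all 12 libraries. DESeq2 called Oat lower in low against neg (adjusted p = 0.0322). Glul, the glutamine synthetase gene, had the highest mean of them, with values of 3662, 2089 and 2524 in neg, 3263, 4514 and 3868 in sub, 1835, 1312 and 1571 in low, and 1695, 4028 and 1842 in high. Low lay below neg and sub, while high overlapped all 3, and the F test gave an adjusted p of 0.442.

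**Figure D4:**
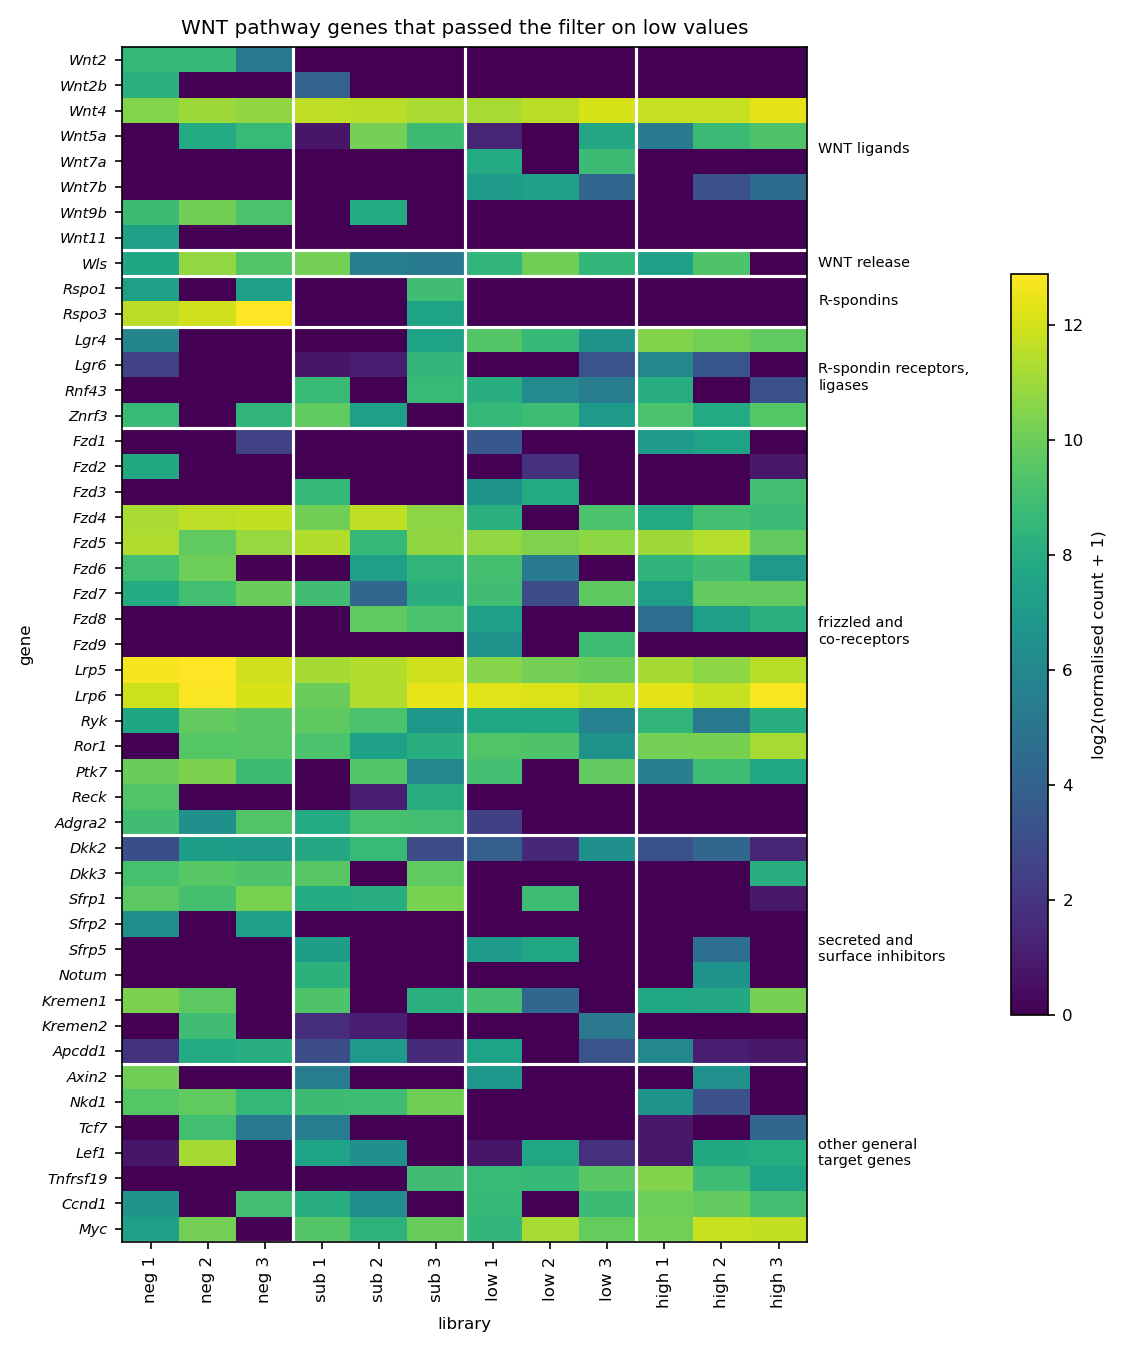
Colours give log2(normalised count + 1) for the tested genes of 7 of the lists (rows) in the 12 libraries (columns, by gate); darkest is 0. Rspo3, Wnt2 and Wnt9b are bright in neg and dark in low and high, and Adgra2, which is also bright in sub, is dark in high; Lrp6 is bright in all 12 libraries.

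By likeness over the 12 libraries (Pearson's r of log2(normalised count + 1), a description in which shared zeros weigh heavily), the tested genes closest to Wnt2 were Rmi1 (r = 0.997), E2f7 (0.994) and Lhx6 (0.983). All 3 were above 0 in neg alone and lowest in neg 3. Closest to Wnt9b were Renbp (0.998), Ripk3 (0.992) and Ada (0.981), each above 0 in neg and in sub 2 and nowhere else. Closest to Rspo3 were Lpar1 (0.988), Gm15337 (0.986) and Casp1 (0.985), each above 0 in neg and in sub 3 and nowhere else. For Rspo1 they were BC023105 (0.999), Angpt2 (0.998) and Phf24 (0.996), each listed at 0 in neg 2 and above 0 in neg 1, neg 3 and sub 3. For Lgr4 they were Ndufb11 (0.953), Msmo1 (0.928) and Adora1 (0.927), and of these Msmo1 was above 0 in all 12 libraries. For Znrf3 the highest r was 0.977, with Clptm1, for Axin2 0.979, with Adam8, and for Wnt5a 0.897, with Stc2.

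Rspo3 shares its locus with Gm20276, an unclassified transcript annotated on the same strand, so reads of the 2 may have been divided between them. Gm20276 was at 19.3, 852 and 713 in neg and between 8.98 and 97.3 in the other 9 libraries, far below Rspo3 in neg. The antisense transcripts annotated across Rspo1, Rspo3, Axin2 and Wnt5a, and the gene A930009A15Rik across Lgr5, were listed at 0 in all libraries.

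**Figure D5:**
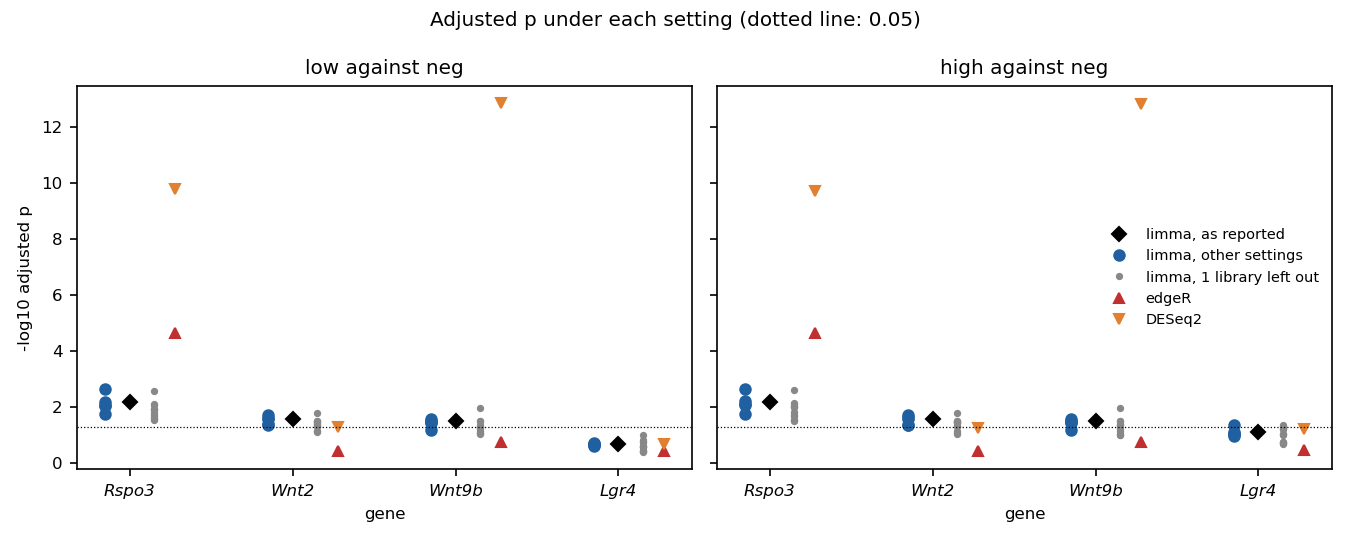
The plot shows -log10 of the adjusted p of Rspo3, Wnt2, Wnt9b and Lgr4 in low (left) and high (right) against neg, for limma as reported, limma under other settings, limma with 1 library left out, edgeR and DESeq2; the dotted line is 0.05. Every point of Rspo3 lies above the line, at adjusted p-values of 0.0309 or less, while Wnt2 and Wnt9b have points on both sides in both panels.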

How the data were processed

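The values used are from 1 deposited table that holds, for every gene, a signal in each of 12 libraries: the authors' normalised count. Per the submitters' processing notes, Salmon and DESeq2 1.26.0 were used with mm10; their roles, the gene annotation and whether counting used strand are not given in the sources used here. Per the labels' protocols, a DNase step of 30 min came before library preparation with Takara's SMARTer Pico v2 kit, a stranded chemistry for total RNA. In each library 100% of the values above 0 were whole multiples (tolerance 0.001) of 1 step, 0.691 to 1.22, so reads were recovered by division. This held for all 12 libraries, and the count tests used all 12. The labels name no molecular identifiers, so floors of 3 reads cover counting error only.

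Genes with a mean of at least 10 (16128) entered limma 3.58.1 in R 4.3.3 on log2(normalised count + 1), with the gate as only term, variance trend and Benjamini-Hochberg adjustment over all genes at 0.05, two-sided. Log2 differences are differences of mean log2 values on that scale. It understates changes of low genes against gates at 0, and where a gate mixes zeros with high values its difference can be far from the log2 ratio of the gate means, which the count tests follow, or of the other sign. Alternatives were pseudocounts of 0.5 and 5, no filter, equal totals, a replicate block, each library left out, and edgeR 4.0.16 (quasi-likelihood) and DESeq2 1.42.0 on the recovered reads. The 10 genes, the pathway lists and the marker lists were chosen with earlier results of these data known. A contrast of a member was named if it passed in any of the 3 tools or if the gates did not overlap. Of other listed genes, those past the threshold in limma were named, and where a list had none besides members, its gene with the highest mean. Genes called by a count test alone, genes listed at 0 and Lrp6 were named in addition, after their values had been seen. Gene positions are from GENCODE M21 (GRCm38), promoter windows from RefSeq (GRCm38.p6). The genes most like Rnf43 are not reported here.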

Additional observations from a re-analysis of the deposited data

How the results depend on the processing

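The number of the 10 genes past the threshold in sub against neg was 0 with limma and 1 with a pseudocount of 5 (Rspo3), with no filter (Wnt2), in edgeR (Rspo3) and in DESeq2 (Rnf43). In low against neg and in high against neg it was 3 with limma, 1 in edgeR (Rspo3), 2 with no filter (without Wnt9b) and 3 in DESeq2, where Rnf43 took the place of Wnt2; with a pseudocount of 5 it was 4 in high, with Lgr4 added. In low against sub and in high against sub it went from 0 to 1 in edgeR and 2 in DESeq2. In the F test it went from 2 to 1 with a pseudocount of 5 and with the replicate block, Wnt2 being lost in both. Over all genes limma called 217, 820, 823 and 791 with a pseudocount of 5 in sub, low and high against neg and in the F test, and 155, 583, 618 and 544 with no filter, beside 192, 757, 757 and 682 as reported. Over all genes DESeq2 called 1714 in sub against neg, 1642 in low against sub, 2358 in low against neg, 2266 in high against neg and 1538 in high against sub, where limma called 192, 120, 757, 757 and 159. In high against low limma called 0, and 1 gene was called without the filter, 1 with the replicate block, 34 in edgeR and 697 in DESeq2. The causes were not tested. Wnt9b lost both calls with no filter (limma adjusted p = 0.0684 in low and 0.0673 in high).

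With 1 library left out, limma called 135 to 239 genes in sub against neg, 10 to 126 in low against sub (10 without sub 2), 445 to 763 in low against neg, 424 to 773 in high against neg, 46 to 176 in high against sub, 0 to 4 in high against low and 509 to 686 in the F test. Members called were 0 to 1 in sub against neg, 1 to 3 in low against neg, 1 to 4 in high against neg, 0 in low against sub, high against sub and high against low, and 1 to 2 in the F test. Low and high against sub ran from -3.96 to 0 for Wnt9b and from -3.75 to 0 for Rspo3, with 0 where the one sub library above 0 was left out.

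Libraries that share a replicate number correlated at -0.016 to 0.027 in their deviations from the gate means, none above 0.1, and 10 of 12 lay closest to a library of their own number, which is a hint from the data. The column names of the deposited table also share a suffix over the 4 gates for each number, and the labels do not say whether it marks a mouse, a day or something else. With the number as a replicate block limma called 180 genes in sub against neg, 83 in low against sub, 720 in low against neg, 715 in high against neg, 130 in high against sub and 621 in the F test. Members called with the block were 3 in low and 3 in high against neg. Depth limits every value at or near 3 reads, which stand for normalised counts of 2.07 to 3.67.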

Other observations

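2 other ligand genes, picked out after their values had been seen, were listed at 0 in all 3 neg libraries. Wnt7b was listed at 0 in neg and sub, at 132, 164 and 17.3 in low and at 0, 8.09 and 22.9 in high, and was called in no contrast (limma adjusted p = 0.110 in low against neg). Wnt7a was above 0 in low 1 (237) and low 3 (460.3) alone.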
